A study of Mus musculus with 29 samples.

Results

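The 9 genes Tmem119, P2ry12, Cx3cr1, Selplg, Siglech, Fcrls, Csf1r, Gpr34 and Olfml3 were followed in the mouse hypothalamus from the first postnatal days to old age. They were taken by gene symbol from every count file, as 9 of the 24499 symbols each file lists, and are called here the homeostatic microglia genes. Total RNA of the hypothalamus of wild-type C57BL/6 mice, all labelled male, was sequenced at 9 ages: postnatal day 5 (P5, 3 libraries), 3 weeks (3), 4 weeks (4), 5 weeks (4), 2 months (3), 6 months (3), 12 months (3), 18 months (3) and 24 months (2). The mice were kept 1 to a cage with a day and a night of 12 h each, and were killed for dissection near hour 6 of the light phase. By the labels, no genotype, transgene or treatment differs between the ages. The study counts mice at each age, but the labels give no more than the age and a number for each library, so the p-values stand for the spread between libraries, which may be technical in part.

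Microglia are the resident macrophages of the brain. They settle there before birth, depend on signalling through the receptor Csf1r, and take on their adult state during the first postnatal weeks. In that state they express a set of surface receptors that sample the surrounding tissue: P2ry12 is a receptor for ADP that steers the processes towards injury, Cx3cr1 receives the neuronal chemokine fractalkine, and Gpr34 is a receptor for lysophosphatidylserine. Csf1r binds the growth factors Csf1 and Il34. Selplg is a ligand of selectins, Siglech is a sialic acid-binding lectin and Fcrls an Fc receptor-like protein of rodents. Tmem119 is a membrane protein much used as a microglia marker, and Olfml3 is a secreted matrix protein. Activated microglia are known to hold less of several of these transcripts, while other genes, such as Itgax and Clec7a, mark the activated state.

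The promoters of 5 of the 9 genes were in the RefSeq table (GRCm38.p6), each as 250 bases before and 50 after the annotated start of transcription. Those of P2ry12, Fcrls and Siglech are shown, because the levels of these receptors took different courses with age, and because myeloid genes are known to be controlled by the ETS factor PU.1 and by RUNX factors. Capitals mark the ETS core AGGAAG or its reverse complement CTTCCT, and the RUNX core TGTGGT or its reverse complement ACCACA. No match of one motif overlapped a match of the other.
P2ry12, chr3:59262936-59263235, minus strand: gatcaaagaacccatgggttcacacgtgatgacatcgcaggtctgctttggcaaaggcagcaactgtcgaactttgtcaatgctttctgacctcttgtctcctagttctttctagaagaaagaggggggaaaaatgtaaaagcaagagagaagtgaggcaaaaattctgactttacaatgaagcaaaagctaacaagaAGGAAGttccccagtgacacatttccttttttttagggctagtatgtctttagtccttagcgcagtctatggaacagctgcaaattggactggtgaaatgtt
Fcrls, chr3:87263475-87263774, minus strand: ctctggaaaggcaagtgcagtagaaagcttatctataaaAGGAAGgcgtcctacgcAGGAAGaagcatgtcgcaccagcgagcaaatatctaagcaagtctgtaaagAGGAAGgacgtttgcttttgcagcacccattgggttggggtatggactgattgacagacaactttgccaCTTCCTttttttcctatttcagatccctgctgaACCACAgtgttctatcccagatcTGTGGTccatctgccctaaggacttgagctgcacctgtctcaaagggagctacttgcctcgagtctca
Siglech, chr7:55767934-55768233, plus strand: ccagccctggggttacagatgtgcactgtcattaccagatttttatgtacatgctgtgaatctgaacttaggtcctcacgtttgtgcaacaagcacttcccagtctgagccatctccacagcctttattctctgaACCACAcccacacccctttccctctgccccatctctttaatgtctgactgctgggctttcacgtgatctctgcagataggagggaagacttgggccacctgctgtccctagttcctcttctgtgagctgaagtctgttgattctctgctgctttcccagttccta
The ETS core stood in 3 of the 5 promoters, 1 time in that of P2ry12, 4 times in that of Fcrls and 1 time in that of Olfml3. It stood in 35.4% of 32851 mouse promoters of the same length. The RUNX core also stood in 3 of the 5, with 2 matches in the Fcrls promoter and 1 each in those of Siglech and Cx3cr1, against 16.8% of all promoters. These matches are descriptions of the letters in the windows and were not tied to any change in level.

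Values are CPM, the deposited gene counts scaled to the size of each library. A library held 24661631 to 39783779 gene counts, and a homeostatic microglia gene between 98 (Tmem119 at P5) and 3369 counts. All 9 genes passed the filter on low counts, which left 16916 genes. A gene was called where its adjusted p (edgeR, Benjamini-Hochberg) was below 0.05. A further library of 24 months held counts for 1385 genes, of which the 1341 with a position lie on chromosomes 1 and 10, and was left out. Markers of hypothalamic neurons, summed over 10 genes, ranged from 101 to 1616 CPM and came to 408 to 555 CPM at 6 months, against 101, 151 and 222 CPM at 2 months and 198 to 290 CPM at P5. P5 replicates 1 and 2, labelled male, held Xist at 746 and 791 CPM and no Ddx3y, and P5 replicate 3 held 0.223 and 55.1 CPM of them. Bpifa2, a salivary gland gene, had 34 to 47 CPM in 5 libraries, which are all those of 3 weeks and replicates 1 and 2 of 4 weeks, and no more than 0.0587 CPM in any other. The gene Rn7s2 had 59 and 60 CPM in the 24-month libraries, and 21.7 to 29.6 CPM in replicates 3 and 4 of 4 weeks and all of 5 weeks. It had no more than 5.74 CPM in any other. For 24 months, what part this difference has in the values was not tested. The sample titles of 3 to 5 weeks begin with other letters than those of P5 and of 2 to 24 months, so title style and age cannot be told apart where these ages are compared.

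The homeostatic microglia genes were low at P5, and their sum was above the P5 range in every later library. It was 262 to 295 CPM in the 3-week libraries, against 115 to 126 CPM in the P5 libraries, and lay between 179 and 289 CPM from 4 weeks on. In this bulk tissue, more microglia and more RNA of these genes per microglial cell cannot be told apart. In an F-test over the 9 ages all 9 genes were called (edgeR), where 76.8% of all genes tested were called. With P5 replicate 3 as the only P5 library it called 8, without Gpr34 (adjusted p = 0.0765).

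**Figure D1:**
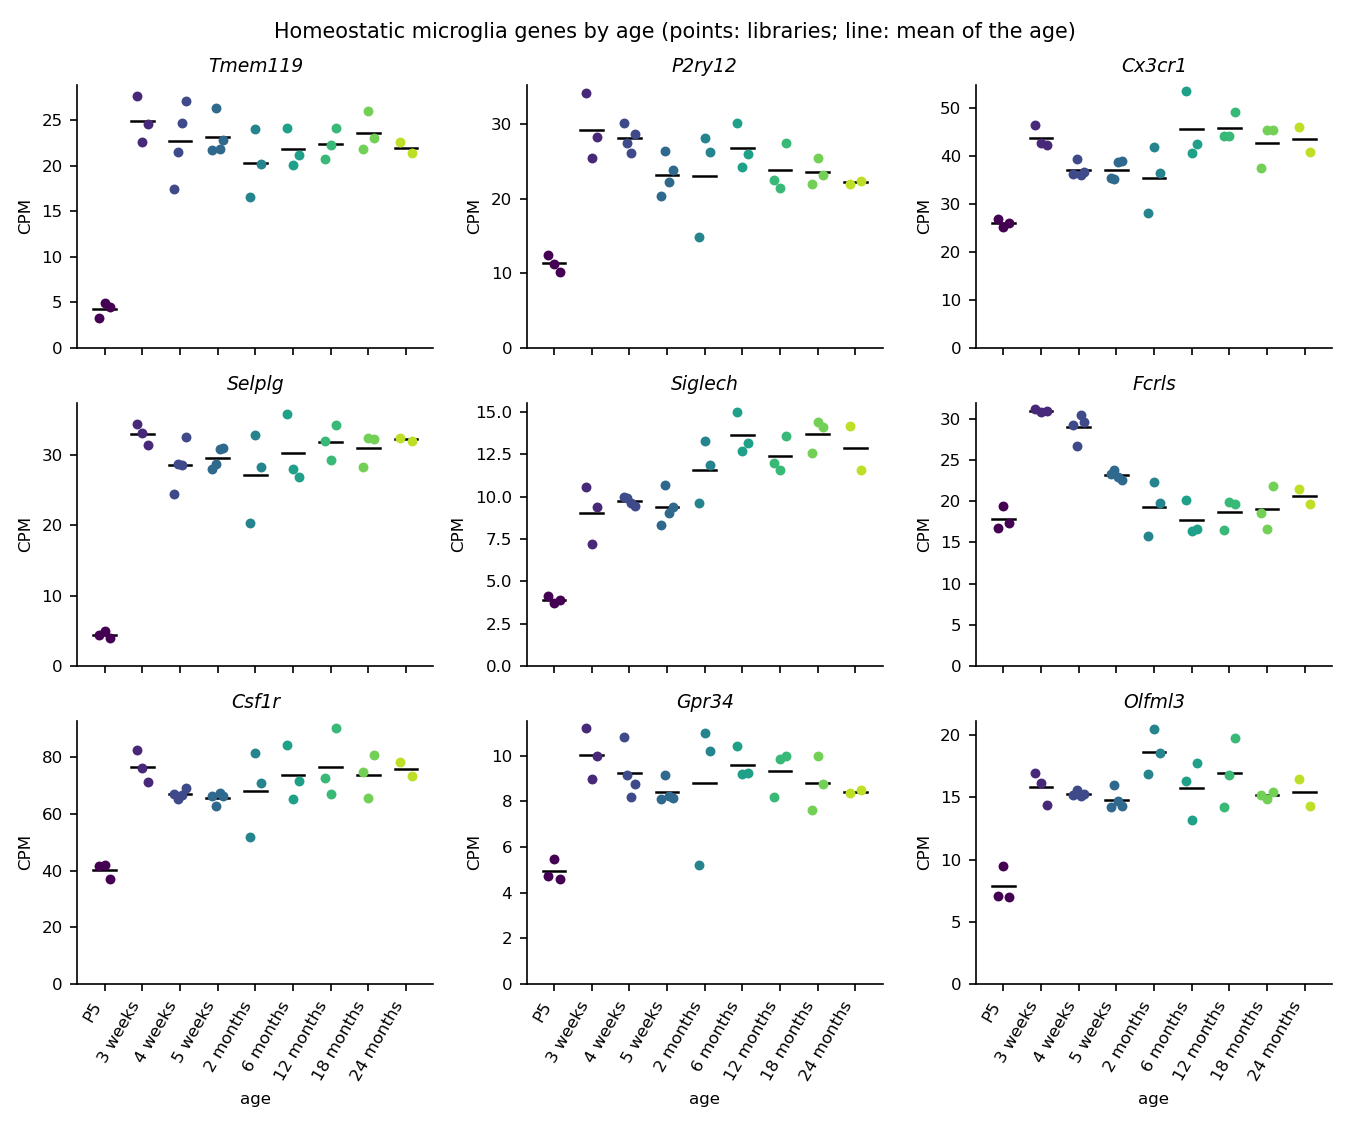
CPM of each of the 9 homeostatic microglia genes (y axis, linear from 0) in each library by age (x axis), with points for libraries and lines for the mean of the age. The P5 points of Tmem119 (3.28 to 4.92) and Selplg (4.02 to 4.95) lie far below all later ones, while those of Fcrls (16.7 to 19.4) lie within its adult range.

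The change up to weaning was tested between the 3 libraries of 3 weeks and the 3 of P5. All 9 rose, and the 3-week and P5 libraries did not overlap for any of them. The share of all genes without such an overlap is not given here. Over all genes tested, 29.8% were called higher and 29.3% lower, and the median log2 change was -0.01, against 1.02 for the 9 genes.

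Selplg and Tmem119 stood apart from the other 7 by the size of their rise. Selplg was at 34.3, 33.1 and 31.3 CPM at 3 weeks, against 4.45, 4.95 and 4.02 CPM at P5. Its mean was 7.35-fold higher (95% interval 5.97 to 9.06; log2 change 2.88 ± 0.15 SE, edgeR adjusted p = 2.66e-14). Tmem119 was at 27.7, 22.6 and 24.6 CPM at 3 weeks, against 3.28, 4.92 and 4.5 CPM at P5. This was a 5.88-fold rise (4.68 to 7.39; 2.56 ± 0.16, edgeR adjusted p = 1.32e-12). By log2 change these genes ranked 204 and 282 from the top of the 16916 tested. They are neighbours on chromosome 5 (GRCm38), both on the minus strand and 18019 bases apart: Tmem119 at 113793729 to 113800516 and Selplg at 113818536 to 113832644.

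The receptors of nucleotides, lipids, chemokines and growth factors rose less. P2ry12 (chromosome 3, 59216272 to 59262871) was at 34.1, 25.4 and 28.3 CPM at 3 weeks, against 12.5, 11.3 and 10.2 CPM at P5, a log2 change of 1.38 ± 0.16 (edgeR adjusted p = 1.09e-07). Gpr34 (X, 13632089 to 13640858) had means of 10 ± 1.1 CPM at 3 weeks and 4.93 ± 0.469 CPM at P5 (SD, n = 3 each), and rose by 1.02 ± 0.18. Of the receptors with the higher levels, Csf1r averaged 76.6 ± 5.69 CPM at 3 weeks and 40.1 ± 2.72 CPM at P5 (0.93 ± 0.12). Cx3cr1 (chromosome 9, 119901616 to 120069879) averaged 43.8 ± 2.32 and 26 ± 0.858 CPM at these ages, and its rise of 0.75 ± 0.11 was the smallest of the 9 (interval 0.52 to 0.98, against 2.58 to 3.18 for Selplg). The lectin Siglech (chromosome 7, 55768178 to 55778925) was at 9.07 ± 1.74 CPM at 3 weeks and 3.9 ± 0.202 CPM at P5 (1.22 ± 0.14). Olfml3 (chromosome 3, 103722222 to 103738001) rose as well, with 15.9 ± 1.34 against 7.86 ± 1.43 CPM (2.02-fold). Fcrls (chromosome 3, 87250758 to 87263738) was at 31.2, 30.8 and 30.9 CPM at 3 weeks, against 16.7, 19.4 and 17.4 CPM at P5 (0.79 ± 0.11, edgeR adjusted p = 9.1e-07). Exons of Csf1r and P2ry12 overlap exons of the opposite-strand genes Hmgxb3 and Med12l, and the strand setting of the counting is not given in the sources used here. Neither overlapping gene was called (log2 changes of -0.00 and -0.12), and Gpr34 lies inside Cask, with which it shares no exon. An antisense gene that overlaps an exon of Cx3cr1 was not analysed here.

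All 9 genes were also called with P5 replicate 3, the one whose sex markers match its label, as the only P5 library, which is then assumed to vary like the libraries of the other ages. Markers of lymphocytes were also higher at 3 weeks, with a level summed over the 9 listed of 3.46 to 4.66 CPM against 0.502 to 0.92 CPM at P5. Only 5 of the 9 passed the filter on low counts and were tested, and all 5 were called higher. Their levels followed Bpifa2, at 3.46 to 4.66 CPM in the 5 libraries that hold it and at most 2.47 CPM elsewhere. With those 5 libraries left out, 4-week replicates 3 and 4 set against P5 still had all 9 genes called higher, by 0.49 to 2.77 (median 0.96). Of all 16866 genes tested in that fit, 4764 were called higher and 4699 lower. Only 3 of the lymphocyte markers were tested in it, and 1 was called higher.

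The comparison of the 4 ages from 6 to 24 months (11 libraries) with P5 was added after the values were seen. This was done because the titles of these libraries begin alike, though they differ in their other parts. P5 replicates 1 and 2 held Xist and no Ddx3y, unlike the older libraries, and the part of sex in these changes was not tested. Of the 9 genes, 8 rose, where 34.6% of all genes were called higher and 33.5% lower. Selplg (2.81 ± 0.13; 31.2 against 4.47 CPM), Tmem119 (2.40 ± 0.14; 22.5 against 4.23 CPM) and Siglech (1.75 ± 0.12; 13.2 against 3.9 CPM) rose most. P2ry12 (1.09), Olfml3 (1.01), Csf1r (0.90), Gpr34 (0.87) and Cx3cr1 (0.77) rose by amounts near those at 3 weeks, which were measured against the same P5 libraries. Fcrls, at 18.9 CPM in the older mice and 17.8 CPM at P5, was not called (0.09 ± 0.09, interval -0.09 to 0.27, edgeR adjusted p = 0.372). Its ranges in the 2 groups overlapped, while those of the other 8 genes did not. For this comparison too, the share of all genes without an overlap is not given here.

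**Figure D2:**
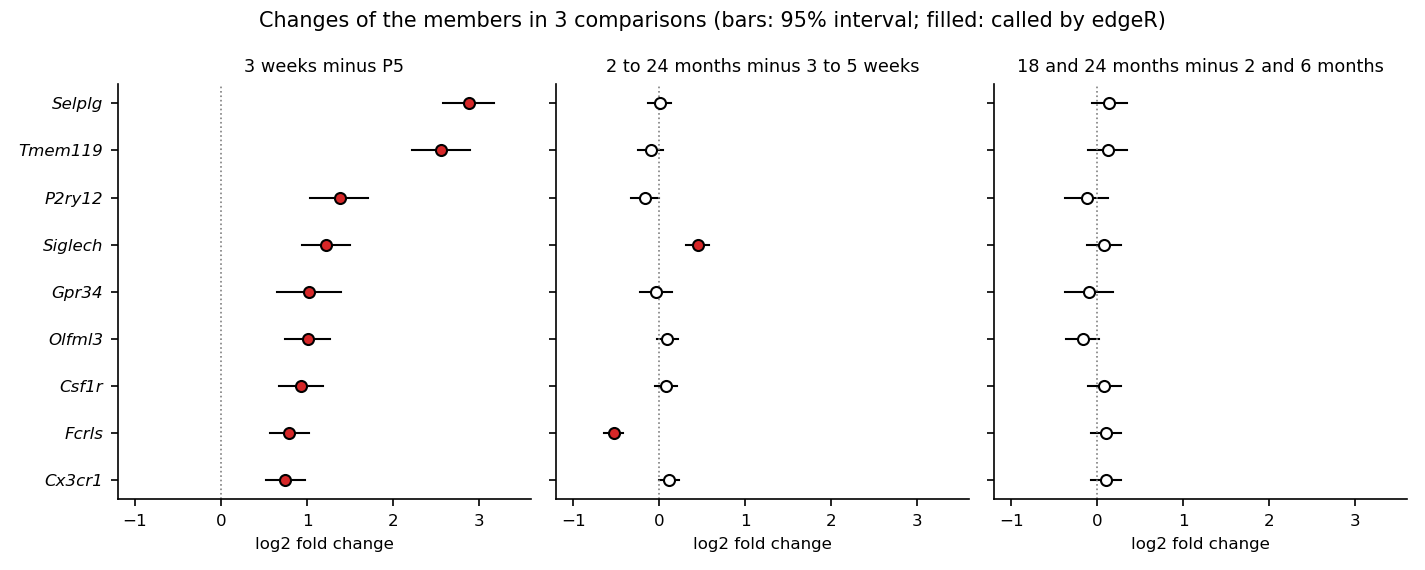
Log2 fold change (x axis) of each homeostatic microglia gene (rows) in 3 comparisons, with 95% intervals as bars and filled points for called genes. All 9 points are filled and above 0 for 3 weeks minus P5, those of Siglech and Fcrls are filled for 2 to 24 months minus 3 to 5 weeks, and none is filled for 18 and 24 months minus 2 and 6 months.

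The make-up of the set differed between P5 and later. At 3 weeks Tmem119 made up 9.13% and Selplg 12% of the summed CPM, against 3.51% and 3.7% at P5. Their mean shares at the later ages were 8.58% to 9.87% for Tmem119 and 11.5% to 12.7% for Selplg. Csf1r made up 28% at 3 weeks and 33.2% at P5, Cx3cr1 16% and 21.6%, and Fcrls 11.3% and 14.8%. Levels were compared between genes per kilobase of exon (GENCODE M21). The exons of all annotated transcripts of a gene were merged, so the order depends on this length. In the 14 adult libraries from 2 to 24 months, the highest was that of Csf1r (12.7 ± 1.66 CPM per kb; SD). Tmem119 (9.51 ± 0.996), Cx3cr1 (9.44 ± 1.34) and P2ry12 (9.43 ± 1.46) followed at nearly equal levels, then Fcrls (8.12 ± 0.947) and Selplg (7.1 ± 0.909). Gpr34 (4.32 ± 0.695), Siglech (3.8 ± 0.424) and Olfml3 (2.67 ± 0.347) had the lowest. Olfml3 had the longest merged exons (6161 bases). Without the scaling by length its adult median of 16.4 CPM was above those of Siglech (13) and Gpr34 (9.21). At P5, Fcrls (7.64 ± 0.614 CPM per kb) and Csf1r (6.95 ± 0.47) had the highest levels and Selplg the lowest (1.05 ± 0.108; n = 3).

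Differences of the 9 genes between the ages after P5 were tested as well, and a gene not called may still differ. An F-test over the 8 later ages called 3 of them (edgeR), Fcrls (adjusted p = 1.93e-06), Siglech (0.000549) and Cx3cr1 (0.0192), where 44.9% of all genes were called. P2ry12 was called as well without 2-month replicate 11 and with all 2-month libraries left out (adjusted p = 0.0322 in both). For the 8 genes other than Fcrls, each later age's libraries overlapped those of the next age in the order of the means. That order ran from 3 weeks (25 CPM) to 2 months (20.3 CPM) for Tmem119, from 3 weeks (32.9) to 2 months (27.2) for Selplg, and from 12 months (76.6) to 5 weeks (65.6) for Csf1r. Gpr34 ran from 3 weeks (10 CPM) to 5 weeks (8.41), P2ry12 from 3 weeks (29.3) to 24 months (22.2), and Olfml3 from 2 months (18.6) to 5 weeks (14.8). Cx3cr1 ran from 12 months (45.8 CPM) to 2 months (35.4), and Siglech from 18 months (13.7) to 3 weeks (9.07). For 8 of the 9 genes P5 had the lowest mean. The exception, Fcrls, had its lowest at 6 months (17.7 ± 2.09 CPM). Gpr34 in 2-month replicate 11, at 5.22 CPM, was the only later value of these 8 genes inside the P5 range.

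Fcrls fell after weaning. It was at 31.2, 30.8 and 30.9 CPM at 3 weeks, at 29.2, 26.7, 30.5 and 29.6 CPM at 4 weeks and at 23.3, 23.8, 22.9 and 22.6 CPM at 5 weeks. From 2 to 24 months it ranged from 15.8 to 22.3 CPM (median 19.7). The libraries of 3, 4 and 5 weeks did not overlap with each other, nor with the adult ones. In the comparison of 5 weeks with 3 weeks it was the only one of the 9 genes called (-0.42 ± 0.10, edgeR adjusted p = 0.0244), where 0.698% of all genes were called higher and 1.45% lower. The call rests on the full set of libraries: it was lost without any 1 of 6 of the 7 libraries (adjusted p = 0.0606 to 0.0922), all but 5-week replicate 2, and with the Bpifa2 library set as a term (-0.51, adjusted p = 0.0524). The other 8 genes were not called. Their estimates ran from -0.34 ± 0.15 (P2ry12) to 0.04 ± 0.12 (Siglech), and 7 of the 8 were below 0.

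Siglech took the opposite course. It was at 10.6, 7.19 and 9.4 CPM at 3 weeks, at 10, 9.91, 9.65 and 9.45 CPM at 4 weeks and at 8.33, 10.7, 9.06 and 9.38 CPM at 5 weeks. From 2 to 24 months it ranged from 9.61 to 15 CPM (median 13), so that the adult and the juvenile libraries overlapped only in part. Comparing all 14 adult libraries with the 11 of 3 to 5 weeks was chosen after these values were seen. In it Fcrls fell (19 against 27.4 CPM, -0.53 ± 0.05, edgeR adjusted p = 2.7e-08) and Siglech rose (12.8 against 9.43 CPM, 0.45 ± 0.07, adjusted p = 4.6e-06). Over all genes, 26.6% were called higher and 25.6% lower, and title style goes with age in this comparison. Both genes were called without any 1 library, and without the Bpifa2 libraries (-0.46 for Fcrls and 0.44 for Siglech), where Cx3cr1 was called as well (0.21, adjusted p = 0.0321). The other 7 genes had estimates between -0.16 (P2ry12) and 0.11 (Cx3cr1) and were not called. With the 2-month libraries left out, Cx3cr1 (0.18, adjusted p = 0.00272) and P2ry12 (-0.15, adjusted p = 0.038) were called as well. Either of these was also called without certain single libraries: Cx3cr1 without 2-month replicate 11 (0.14) or 18-month replicate 14 (0.13), and P2ry12 without 3-week replicate 2 or 2-month replicate 12 (-0.20 each). Over the same comparison, border macrophage markers fell in 4 of 11 cases and 1 rose, with Mrc1 at 3.78 against 5.43 CPM, and their part in the change of Fcrls was not tested.

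The ratio of Fcrls to Siglech within a library puts both courses in a single number. It was chosen after their opposite courses were seen, so it is a description and not a further test. It averaged 4.59 ± 0.6 at P5, 3.5 ± 0.705 at 3 weeks, 2.97 ± 0.215 at 4 weeks, 2.49 ± 0.238 at 5 weeks, 1.66 ± 0.0151 at 2 months and 1.29 ± 0.0427 at 6 months (SD). At 12, 18 and 24 months it was 1.51 ± 0.179, 1.39 ± 0.212 and 1.61 ± 0.127. Every library of 3 to 5 weeks (2.23 to 4.29) lay above every adult one (1.15 to 1.72), and title style goes with age in this split too. The 2-month libraries differed from one another in level, with Fcrls at 15.8, 22.3 and 19.8 CPM and Siglech at 9.61, 13.3 and 11.9 CPM, but their ratios lay between 1.65 and 1.68.

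**Figure D3:**
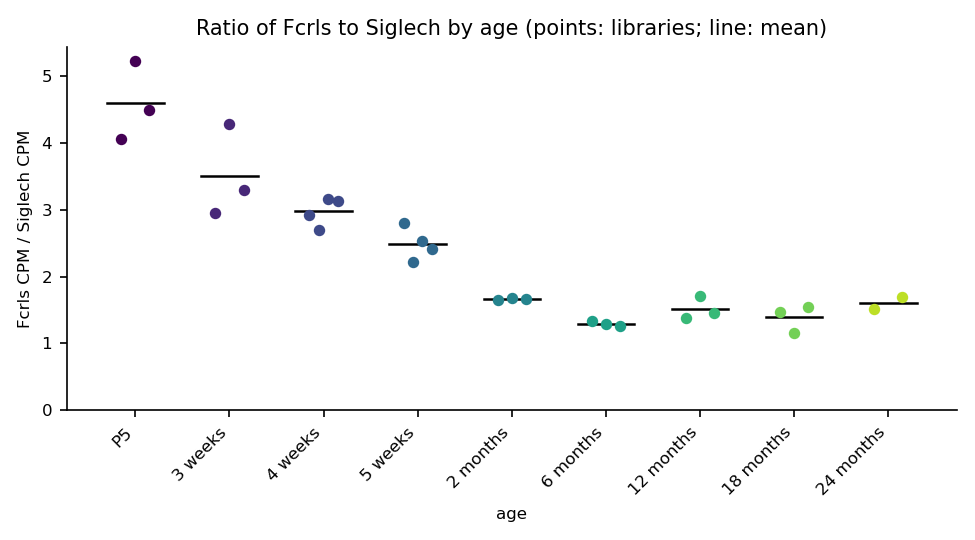
Ratio of Fcrls CPM to Siglech CPM (y axis, linear from 0) in each library by age (x axis), with points for libraries and lines for the mean of the age. The mean is 4.59 at P5 and 1.29 at 6 months, and all adult libraries lie at or below 1.72.

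The steps around the start of adulthood were tested next. In 2 months against 5 weeks only Olfml3 was called (18.6 ± 1.81 against 14.8 ± 0.838 CPM, 0.34 ± 0.11, edgeR adjusted p = 0.0459), where 7.13% of all genes were called higher and 9.43% lower. Its 2-month values of 16.9, 20.5 and 18.6 CPM lay above the 5-week values of 14.2, 16, 14.7 and 14.3 CPM. The call was lost without 5-week replicates 1, 3 or 4 or 2-month replicates 12 or 13 (adjusted p = 0.0894 to 0.178), and title style goes with age here too. Olfml3, Siglech and Fcrls were the 3 of the 9 genes with an unadjusted p below 0.05 (edgeR), as were 30.2% of all genes. Siglech (0.31 ± 0.12, adjusted p = 0.086) and Fcrls (-0.26 ± 0.10, adjusted p = 0.088) came near the threshold for a call. Siglech passed it without 5-week replicate 2 or 2-month replicate 11 (adjusted p = 0.0457 and 0.0297), and Fcrls without 2-month replicate 12 (0.0223). In 6 months against 2 months none of the 9 was called by edgeR (1.77% of all genes higher, 1.83% lower). Cx3cr1 came nearest, at 45.5 ± 6.88 against 35.4 ± 6.99 CPM (0.36 ± 0.11, edgeR adjusted p = 0.0651). An unadjusted p below 0.05 (edgeR) was reached by 22.3% of all genes and, of the 9, by Cx3cr1 alone. DESeq2 called it (adjusted p = 0.0287), and so did edgeR without 2-month replicate 12, the highest of its age. Hypothalamic neuron markers were called lower in 8 of 10 cases at 2 months against 5 weeks, and higher in 5 of 10 at 6 against 2 months. What part this shift has in the values of the 9 genes was not tested.

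To ask whether these genes changed in old age, 18 and 24 months (5 libraries) was compared with 2 and 6 months (6 libraries). None of the 9 was called by edgeR or DESeq2, none had an unadjusted p below 0.05 with edgeR, and the ranges of the ages overlapped for all 9. Over all genes, 5.68% were called higher and 6.65% lower, and 27.3% had an unadjusted p below 0.05 (edgeR). P2ry12 averaged 23 CPM in the old and 25 CPM in the young adult mice (-0.12 ± 0.12, interval -0.37 to 0.12). Tmem119 averaged 23 and 21 CPM in these groups (0.12 ± 0.11, interval -0.11 to 0.34), and Cx3cr1 43 and 40.5 CPM (0.10 ± 0.08, interval -0.07 to 0.27). Olfml3 had the lowest estimate (-0.17 ± 0.09, interval -0.36 to 0.02) and Selplg the highest (0.14 ± 0.10, interval -0.06 to 0.34). A slope over the 14 adult libraries gave no call among the 9 genes either (edgeR, none at an unadjusted p below 0.05). Of all genes tested, 3.08% were called higher and 4.35% lower with age, and 24.7% had an unadjusted p below 0.05. Over the 22 months spanned, the fitted changes ran from -0.24 (Olfml3, interval -0.51 to 0.03) to 0.21 (Selplg, interval -0.08 to 0.50).

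Other myeloid genes were called in the same comparison of old with young adults, though most of these calls were lost without the 2-month libraries, as given below. These lists, like the 9 genes, were chosen with earlier results of these data known. Of 20 pan-myeloid genes, 9 rose and none fell, with a median log2 change of 0.37, against 0.08 for the 9 homeostatic genes and -0.00 for all genes. The integrin gene Itgb2 was at 8.95 CPM in old and 5.75 CPM in young adult mice (0.66 ± 0.13, edgeR adjusted p = 0.00152). Ly86, a partner of a Toll-like receptor homologue, was at 14.7 and 10.8 CPM (0.46), and the signalling adaptor Tyrobp at 17.4 and 13.2 CPM (0.40). Of 16 genes of activated and early postnatal microglia, 5 rose and 3 fell. The integrin gene Itgax was at 1.86 CPM in old and 0.283 CPM in young adult mice (2.85 ± 0.27, edgeR adjusted p = 9.7e-07). The protease inhibitor gene Cst7 was at 1.03 and 0.159 CPM (2.61 ± 0.32), the lectin gene Clec7a at 2.14 and 0.477 CPM (2.19 ± 0.28), and Lgals3, of galectin-3, at 2.97 and 1.5 CPM (0.96 ± 0.21). Spp1 (-1.87), Axl (-0.26) and Cd9 (-0.28) fell. Of 22 other homeostatic microglia genes, 4 rose and none fell (median 0.14), among them the lysosomal Ctss (0.53 ± 0.09; 100 against 69.9 CPM), the fructose transporter gene Slc2a5 (0.37) and the integrin gene Itgb5 (0.23).

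The 2-month libraries weigh on these list counts. With them left out, so that 18 and 24 months was set against 6 months alone, 3 of the 16 activated genes were called higher and none lower, so the falls of Spp1, Axl and Cd9 lost their calls, while none of the 20 pan-myeloid (median 0.31) and none of the 22 other homeostatic genes was called. Then 11 genes rose and 20 fell over the whole set tested, none of them among the 9, whose estimates ran from -0.23 to 0.16. Oligodendrocyte markers fell in 8 of 8 cases in old against young adults and hypothalamic neuron markers rose in 8 of 10. Without 2 months, none of either was called. What part these shifts in tissue make-up have in the values was not tested.

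**Figure D4:**
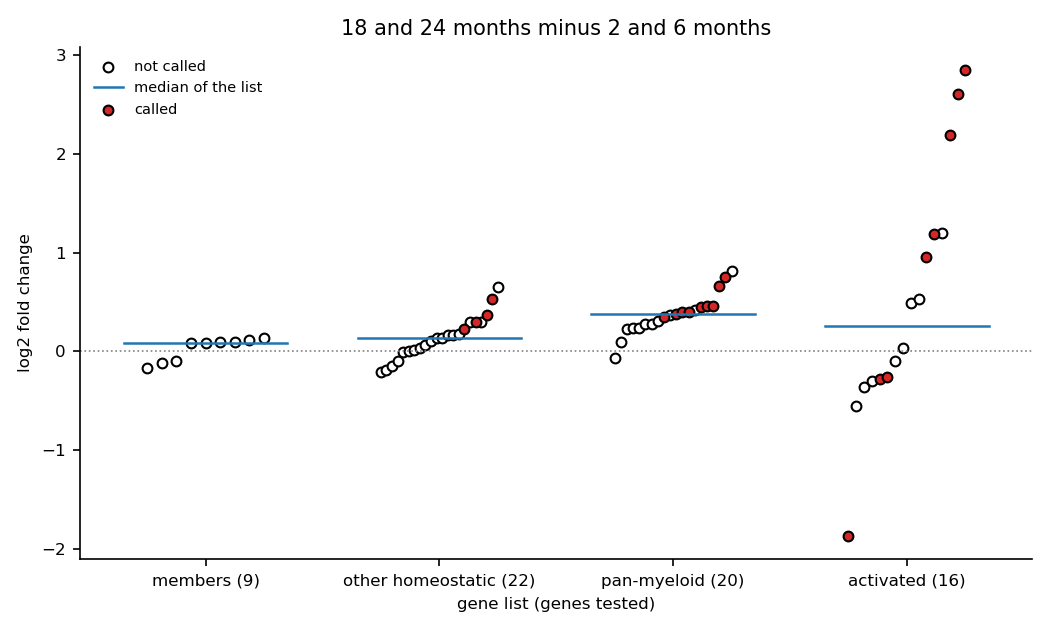
Log2 fold change of 18 and 24 months over 2 and 6 months (y axis) for the genes of 4 lists (x axis), with a line at the median of the list and filled points for called genes. All 9 homeostatic microglia genes lie between -0.17 and 0.14 with none filled, while 3 activated genes lie above 2.

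The other genes of the microglia pathway were also compared at 3 weeks against P5, where 29.8% of all genes were called higher and 29.3% lower. Of the 22 other homeostatic genes, 14 rose and none fell (median 0.59), among them Sparc (2.19 ± 0.11), Ctss (2.05 ± 0.12), Cst3 (1.73 ± 0.13) and the immune checkpoint gene Vsir (1.51 ± 0.09), though Sparc and Cst3 are also made by astrocytes. Of 20 pan-myeloid genes, 17 rose and 1 fell (median 0.79). Among those that rose, the integrin gene Itgam was at 21.5 against 6.37 CPM (1.75 ± 0.16) and the endotoxin co-receptor gene Cd14 at 3.1 against 0.682 CPM (2.18 ± 0.23). Of the 16 genes of activated and early postnatal microglia 4 rose and 3 fell (median 0.06), shares no larger than those of all genes. The fatty acid-binding protein gene Fabp5 was at 111 against 288 CPM (-1.38 ± 0.14), and Igf1, which early postnatal microglia are known to express, at 11.2 against 29.3 CPM (-1.39 ± 0.29). Border macrophage markers had 1 gene higher and 1 lower of 11, with F13a1 at 3.31 against 8.37 CPM (-1.33 ± 0.24). Markers of other glia rose as well: 8 of 8 oligodendrocyte markers (median 6.43) and 7 of 8 astrocyte markers (median 1.53).

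Ligands of these receptors were compared at the same ages. Il34, the neuronal ligand of Csf1r, was at 23.6 CPM at 3 weeks and 5.24 CPM at P5 (2.17 ± 0.12, edgeR adjusted p = 2.27e-13). Csf1, its other ligand, was at 26.8 against 12.3 CPM (1.12 ± 0.09), and Cx3cl1, which encodes fractalkine, at 417 against 196 CPM (1.09 ± 0.11). Cd200, a neuronal ligand that restrains microglia through another receptor, fell to 165 CPM at 3 weeks, against 326 CPM at P5 (-0.98 ± 0.09). In all, 8 of 16 tested ligands and partners rose and 2 fell (median 0.42), where 29.8% of all genes were called higher and 29.3% lower. In the comparison of 2 to 24 months with 3 to 5 weeks, Csf1 rose (33.3 against 27.4 CPM, 0.28 ± 0.05) and Cx3cl1 fell (307 against 386 CPM, -0.34 ± 0.05), while Il34 had an estimate of -0.07 ± 0.06 (adjusted p = 0.339).

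Of 13 transcription factor genes of microglia, 5 rose at 3 weeks against P5 and none fell, near the 29.8% of all genes called higher. They were Irf5 (1.76 ± 0.19), Cebpa (1.65 ± 0.20), Spi1, which encodes PU.1 (1.13 ± 0.19; 7.69 against 3.49 CPM), Irf8 (0.64 ± 0.17) and Sall1, a regulator of microglial identity (0.46 ± 0.08). In 2 to 24 months against 3 to 5 weeks 4 of them fell, Cebpa (-0.40), Spi1 (-0.33; 5.05 against 6.28 CPM), Maf (-0.38) and Fli1 (-0.19), and Sall1 rose (0.19), where 25.6% of all genes were called lower and 26.6% higher. Without the Bpifa2 libraries 1 of the 13 was called lower and 1 higher. In old against young adults only Irf8 was called (6 against 4.41 CPM, 0.44 ± 0.13, adjusted p = 0.0232), and with 2 months left out none was.

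Libraries of the same age differed in the level of the whole set. In 2-month replicate 11 all 9 genes were the lowest of their age, at a median of 0.715 of the other libraries' mean. In 2-month replicate 12 all 9 were the highest (1.3 times the others). At 3 weeks replicate 1 was highest for all 9 genes (1.12 times), and at 6 months replicate 32 and at 12 months replicate 28 for 8 of 9. All 2-month libraries have the low hypothalamic neuron markers given above. Replicate 11 also had the highest summed oligodendrocyte markers of its age, at 21409 CPM against 14965 and 15515 CPM in replicates 12 and 13. Its astrocyte markers were the highest (5463 against 4324 and 4071 CPM) and its border macrophage markers the lowest (18.2 against 34.1 and 36.8 CPM). What part these differences have in the values was not tested. Across the 14 adult libraries the coefficient of variation ran from 10.5% (Tmem119) to 16.1% (Gpr34).

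**Figure D5:**
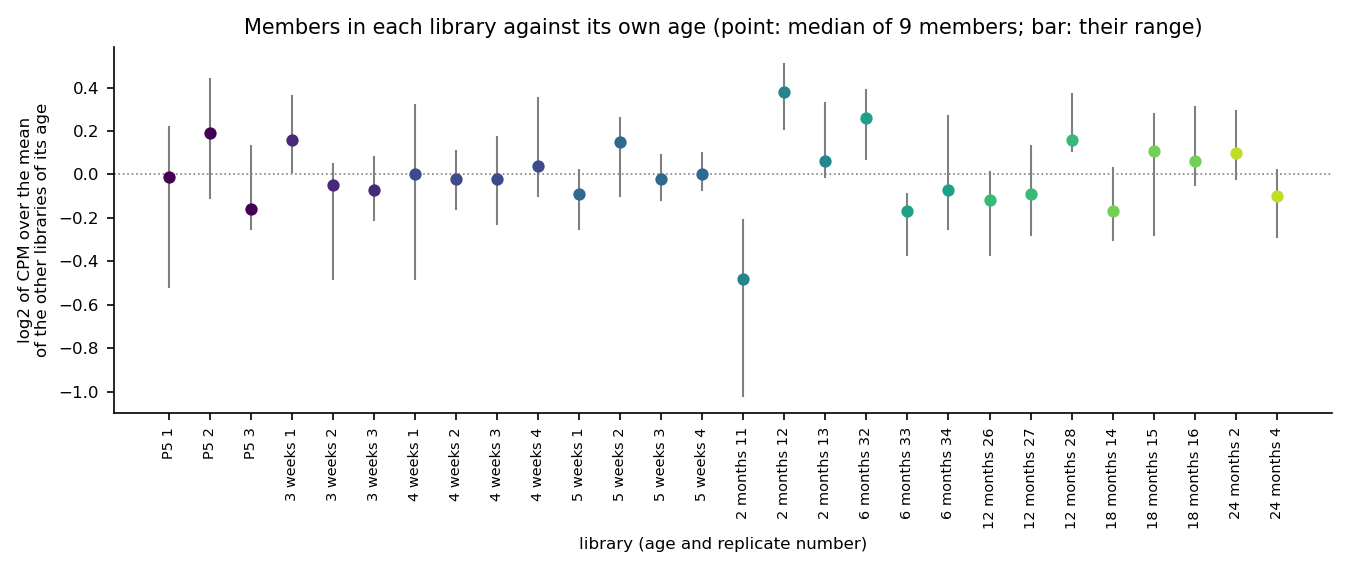
Log2 ratio of CPM in a library to the mean of the other libraries of its age (y axis) for the 9 homeostatic microglia genes, by library (x axis), as the median (points) and range (bars) over the genes. The whole bar lies below 0 for 2-month replicate 11 and above 0 for 2-month replicate 12.

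As a description of likeness, each gene's log2 CPM was correlated with the mean of the others over the 28 libraries. The other 8 genes reached 0.83 to 0.95, while Fcrls reached 0.34. These values hold the step between P5 and later, which oligodendrocyte markers share (median r 0.88 with the mean of the 9). After subtracting each age's mean, the 9 genes reached 0.57 (Olfml3) to 0.84 (P2ry12), Fcrls among them at 0.70, and oligodendrocyte markers had a median of -0.02. The other genes most like the set over the libraries were Vsir (0.95), Dlg1 (0.95), Bin2 (0.94), Utrn (0.94), Dennd4a (0.93), Itgam (0.93), B3gnt2 (0.93) and Cd14 (0.93). Within ages they included Mpeg1 (0.86), Entpd1 (0.85), Abca9 (0.84), Rapgef5 (0.84), Cd84 (0.83) and Laptm5 (0.83). The points share each library's depth, dissection and mix of cells. The median r of all 15603 other genes was 0.03 over the libraries and 0.01 within ages.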

How the data were processed

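Reads of 29 hypothalamus libraries were aligned with HISAT2 2.1.0 to mm10 (GRCm38) and counted with HTSeq 0.9.1, per the submitters' processing notes. The deposited values are raw counts per gene symbol. For the annotation, the strand setting and trimming, what was used is not given in the sources used here. HTSeq summary lines (26.1 to 32.5% of a library's total) were removed. In 28 libraries, CPM were computed here from the counts with TMM library sizes, and log2 CPM with a prior count of 1. Genes were filtered with filterByExpr by age (16916 left; 16633 for the adult slope) and fitted with edgeR 4.0.16 (robust quasi-likelihood, R 4.3.3), two-sided, with Benjamini-Hochberg adjustment over all genes; DESeq2 1.42.0 was an alternative. Errors after ± are SE for log2 changes and SD for CPM. The script was tested on simulated counts. The 9 genes and all lists were chosen with earlier results of these data known. All 9 were tested in every comparison, but not all have their values given in each. Named from each list are up to 4 called genes of smallest p, and any others were named after their values were seen. The 8 most like genes by r are also named, without Gm, Rik and -ps symbols. Some genes chosen by these rules are not reported here. The comparisons of 2 to 24 months with 3 to 5 weeks and of 6 to 24 months with P5, and the fits without 2 months or without libraries holding Bpifa2, were chosen after the values were seen. So was the ratio of Fcrls to Siglech.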

Additional observations from a re-analysis of the deposited data

Results flagged for a closer look

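At 5 weeks, Gpr34 had 1 library apart from the others of its age: replicate 2 was at 9.16 CPM, and the other 3 libraries were at 8.1 to 8.21 CPM. The gap to the nearest was 0.89 of the whole range. It was the only such case among 18 groups of 4 libraries tested (9 genes at 4 and 5 weeks), and chance gives about 1 in 20.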

How the results depend on the processing

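The 9 calls of 3 weeks against P5 kept their direction and side of the threshold under all alternatives compared for them. The fit of all 29 libraries was not among these. With all 29 libraries none of the 9 genes was called in the 2 F-tests, in 2 to 24 months minus 3 to 5 weeks or in 6 to 24 months minus P5 (0 in each), as the partial library then counts as a 24-month library. Between 5 and 3 weeks 0 were called with a replicate block and with the library set as a term. With the block 15 genes were called in all, against 363, and Fcrls had an adjusted p of 0.197. Same-numbered libraries had r of 0.04, 0.13 and 0.05 between 3 weeks and P5, and of -0.12, -0.21 and -0.12 between 5 and 3 weeks. Of these, 2 of 3 and 0 of 3 correlated best with their own number. With so few libraries this cannot tell whether the numbers mark pairs. Between 2 months and 5 weeks 0 were called with no filter on low counts, and between 6 and 2 months 1 with DESeq2. With 2 months left out, 4 were called in 2 to 24 months minus 3 to 5 weeks. When 1 library was left out, counts ran from 0 to 1, 0 to 2 and 0 to 1 for 5 weeks minus 3 weeks, 2 months minus 5 weeks and 6 months minus 2 months. Over all genes, the counts behind the percentages moved more. The 363 calls of 5 weeks minus 3 weeks were 183 to 256 without 1 library and 32 with the library set as a term. The 608 of 6 months minus 2 months were 51 to 1348 without 1 library and 1284 with DESeq2, and the 2802 of 2 months minus 5 weeks were 1778 without 5-week replicate 3. The 2086 of 18 and 24 months minus 2 and 6 months were 730 without 24-month replicate 2, 1335 without 6-month replicate 34, 1345 without 18-month replicate 14 and 31 without 2 months. The 1236 of the adult slope were 443 to 1557 without 1 library, 2045 with DESeq2 and 0 without 2 months. The 8818 of 2 to 24 months minus 3 to 5 weeks were 5877 without the Bpifa2 libraries. With all 29 libraries 484 and 63 genes were called in the F-tests over 9 and 8 ages, 173 in 2 to 24 months minus 3 to 5 weeks, 1228 in 6 to 24 months minus P5, and 0 in both the old against young comparison and the slope.

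Some estimates near 0 changed sign, none of them called. With all 29 libraries the log2 changes of 18 and 24 months minus 2 and 6 months were -0.18 for Tmem119, -0.20 for Cx3cr1, -0.16 for Selplg, -0.22 for Siglech, -0.20 for Fcrls and -0.22 for Csf1r. Their slopes per month were -0.0139, -0.0134, -0.0116, -0.0152, -0.0150 and -0.0154 in the same order. For 2 to 24 months minus 3 to 5 weeks these libraries gave -0.00 for Cx3cr1, -0.11 for Selplg, -0.04 for Csf1r and -0.02 for Olfml3, and for 6 to 24 months minus P5 -0.04 for Fcrls. With 2 months left out Cx3cr1 and Siglech had -0.08 and -0.04 in 18 and 24 months minus 6 months and slopes of -0.0054 and -0.0014. Gpr34 had 0.09 without the Bpifa2 libraries, and Selplg -0.00 without the filter, in 2 to 24 months minus 3 to 5 weeks. Without 1 library, Siglech ran from -0.10 to 0.17 in 5 weeks minus 3 weeks. In 2 months minus 5 weeks the ranges were -0.18 to 0.22 for P2ry12, -0.20 to 0.08 for Cx3cr1, -0.28 to 0.04 for Selplg, -0.10 to 0.21 for Csf1r and -0.13 to 0.32 for Gpr34. In 6 months minus 2 months they were -0.01 to 0.25 for Tmem119, -0.01 to 0.39 for P2ry12, -0.01 to 0.31 for Selplg, -0.04 to 0.27 for Csf1r and -0.13 to 0.32 for Gpr34. In 18 and 24 months minus 2 and 6 months they were -0.00 to 0.16 for Csf1r and -0.23 to 0.01 for Gpr34, and in 2 to 24 months minus 3 to 5 weeks -0.03 to 0.04 for Selplg and -0.08 to 0.02 for Gpr34. The ends of these ranges on the far side of 0 came from leaving out 2-month replicate 11 or 12, apart from that of Siglech (3-week replicate 2). In 18 and 24 months minus 2 and 6 months the intervals of the 9 genes reached -0.37 and 0.34, so smaller changes may have gone undetected at these group sizes.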
